A study of Homo sapiens with 4 samples.

Results

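The genes described here are the zinc finger genes named ZNF followed by a number, compared as a family between the pancreatic adenocarcinoma cell line PANC-1 and PZT-2, a clone made from it in which the histone variant H2A.Z was knocked down. Members were chosen by symbol and by level, namely a deposited estimated count, summed over the transcripts of a gene, that averaged at least 150 over the 4 RNA-seq libraries. By this rule 178 of the 15221 genes with values were members, out of 479 ZNF symbols with values, and 301 lay below the threshold, among them 19 symbols of antisense, divergent or readthrough transcripts. The values that chose the members were those means over both cell lines, so the level of the members is given as a description. The threshold also touches the difference between the lines, because 15 members averaged under 150 in 1 line, 5 of them in PANC-1 and 10 in PZT-2, and reached the threshold through the line where they were higher. Of these 15, ZNF778, ZNF468 and ZNF256 were later called higher and ZNF736, ZNF800, ZNF75D, ZNF518A and ZNF805 lower, and in these 8 genes a difference between the lines was part of passing the rule. The last members inside the threshold were ZNF256 and ZNF627, with deposited means of 151.1 and 150.2, and the first genes outside it were ZNF607 and ZNF550, with 148.6 and 148.3.

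PANC-1 was represented by 2 libraries of untransduced cells and PZT-2 by 2 libraries of cells that stably carry shRNAs against H2A.Z.1 and against both H2A.Z.2 isoforms, delivered in the lentiviral vector pLL3.7-puro from its U6 promoter and kept under puromycin selection. Both lines were grown in the same medium with serum and harvested at the same passage range. PZT-2 is 1 clone, picked among others in the paper for low H2A.Z and also for low proliferation. The paper describes it as the clone with the strongest senescent phenotype. So the knockdown, this selection, the lentiviral insertion, puromycin and differences between clones cannot be told apart. Cells transduced with a scrambled shRNA are not analysed here, and the labels do not say whether libraries of a line came from separate cultures, so the p-values measure only the spread between these libraries.

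ZNF genes encode proteins that mostly carry arrays of C2H2 fingers, small folds held by a zinc ion between paired cysteines and histidines, each of which reads a few bases of DNA. Many also hold a KRAB domain, which binds the corepressor TRIM28 and through it brings histone methylation and heterochromatin to transposable elements and other targets. The family is the largest of human DNA-binding factors, many of its genes stand side by side on chromosome 19, and some proteins with the name bind RNA, ribosomes or the cytoskeleton instead.

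The coding sequence of the members repeats itself, because successive fingers are joined by a short linker of nearly fixed residues. Coding sequence was found in GENCODE 29 for 176 of the members, the other two being the transcribed pseudogenes ZNF271P and ZNF252P. Counted as paired cysteines and histidines at the usual spacing, fingers ranged from 0 to 34 per protein with a median of 9, and 122 members held at least 1 canonical linker with its flanking residues. The 4 most common coding forms of that linker are shown because they are what the members share in sequence, with the 5 codons of the linker itself in capitals and the flanking codons in lower case, read 5′ to 3′.
Form in 11 members: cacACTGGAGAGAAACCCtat
Form in 10 members: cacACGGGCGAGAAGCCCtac
Form in 9 members: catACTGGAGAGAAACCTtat
Form in 8 members: cacACTGGAGAAAGGCCTtat
The commonest form was thus present in 6.25% of the members with coding sequence, and the forms differ in their codons and, in the last one, in a residue, arginine in place of lysine. A median of 6.47% of a member's 31-base words occurred in another gene of GENCODE 29, including overlapping genes, up to 92.7% in ZNF593. For 37 members the share was above 20%, and their estimated counts are uncertain because the counting may have split reads among copies.

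RefSeq promoters, from 250 bases before to 50 after the start on GRCh38.p14, were found for 157 members. The letters CCGGAAG, the core that ETS factors read, occurred on either strand in 63 of these promoters (40.1%), against 21.4% of 7256 promoters of other genes with a mean of at least 150 and 10.7% of all 27305 promoters. GC boxes (GGGCGG) were in 66.2% of member promoters and 74.2% of the other genes at this level, CCAAT letters in 38.9% and 37.3%, and TATAAA in 2.55% and 4.7%. The NRF1 letters GCGCATGC were in 6.37% and 6.09%, and the YY1 letters AAGATGG in 5.73% and 8.6%. Among promoters of members with KRAB letters 29 of 56 held the ETS core, and among those without them 34 of 101 did. A match is a description of the letters, was not tested as a site and was not tested as a difference.

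Windows around the ETS core are shown for 8 members later called, among those that the results below name and whose promoter holds it. A single match is shown for each, although the promoters of ZNF787 and ZNF256 hold more. The windows are read 5′ to 3′ on the strand given, with the core in capitals.
ZNF778, chr16:89217667-89217695, minus strand: cggggccggcgCCGGAAGaggggccggcg
ZNF544, chr19:58228904-58228932, plus strand: tccgccggccaCCGGAAGcaccgccattg
ZNF256, chr19:57947835-57947863, minus strand: ggcctttacttCCGGAAGgaggtggaggc
ZNF598, chr16:2009806-2009834, minus strand: gtgacgtttgcCCGGAAGgggcgggcccg
ZNF787, chr19:56121277-56121305, plus strand: gggcgcccaggCCGGAAGtgaccttcccg
ZNF593, chr1:26169904-26169932, plus strand: agctgatcggcCCGGAAGtgctcacacgt
ZNF580, chr19:55640979-55641007, minus strand: aaaggcgccggCCGGAAGcgcgcgagccc
ZNF736, chr7:64313987-64314010, minus strand: cagagcCCGGAAGctaggagacaa
The core stood in the promoters of 6 of 13 members later called higher, 6 of 25 called lower and 51 of 119 not called. So members that rose, that fell and that did not pass the test all included promoters with these letters.

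The 4 libraries held between 12861486 and 15717578 recovered counts, and the members took between 0.554% and 0.567% of them. In the targeted genes, H2AFZ (H2A.Z.1) had normalized counts, that is counts scaled to a common library size, of 6386 and 6031 in PANC-1 and 2211 and 2258 in PZT-2, a change of -1.47 on the log2 scale (SE 0.0565, adjusted p = 6.25e-05), and H2AFV (H2A.Z.2) had 3342 and 3450.5 in PANC-1 and 2589 and 2717 in PZT-2, a change of -0.36 on the log2 scale (SE 0.0569, adjusted p = 0.00573), a call that was lost without PZT-2 replicate 1. Every log2 fold change here is PZT-2 against PANC-1 from edgeR's quasi-likelihood test, with adjusted p by Benjamini-Hochberg over all 15101 genes tested, and called means an adjusted p under 0.05. All 7 ductal markers were detected, and 4 were called lower (KRT8, KRT18, KRT19 and CDH1), SOX9 was called higher at 0.25 (adjusted p = 0.0373), and KRT7 and EPCAM were not called. KRT8 had 41912 and 40943 in PANC-1 and 18669 and 18172 in PZT-2, and the summed normalized count of the 7, mostly keratins, ran from 87709 to 88954 in PANC-1 and from 46881 to 47765 in PZT-2. CDH1, the epithelial cadherin, had 116 and 148 in PANC-1 and 0.00 and 18.8 in PZT-2. Of 9 markers of blood, endothelium and fibroblasts, PTPRC, CD3E, VWF, PDGFRA and DCN had no values among the deposited transcripts, so their level is not known. The other 4 summed to 518.5 and 545.6 in PANC-1 and 205.2 and 188.8 in PZT-2, mostly COL1A1, which was called lower. Against that sum, the monocyte marker CD14 was called higher at low counts, with 3.37 and 0.00 in PANC-1 and 16.1 and 31.6 in PZT-2, a change of 3.86 on the log2 scale (SE 0.921, adjusted p = 0.0234), and PDGFRB and PECAM1 were not called. The part of this marker change in the values of the ZNF genes was not tested.

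As a family the ZNF genes stayed at nearly the same summed level, and single members moved in both directions. Summed over the 178 members, normalized counts were 80116 and 80189 in PANC-1 and 79543 and 79414 in PZT-2, so both PZT-2 libraries were lower by a small amount. In TPM, a unit explained below, the sums were 3284.5 and 3350 in PANC-1 and 3270 and 3315 in PZT-2, and the lines overlapped. The median log2 fold change was -0.02, against 0.00 over all genes tested and -0.01 over the 9218 genes with a mean of at least 150. The middle of the members ran from -0.26 to 0.15 between the quartiles, and the extremes were -1.16 and 1.13. All 178 members passed the filter on low counts and were tested, and 16 were called higher, 28 lower and 134 not called. Of all genes tested 14.7% were called higher and 13.7% lower (28.4% in all), and of genes with a mean of at least 150, which is the threshold of the members, 19.7% were called higher and 18.5% lower (38.1% in all). The members' share of 24.7% called was thus below that of genes at the same threshold, and lower calls outnumbered higher calls among them.

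The libraries of the cell lines did not overlap in 119 members, 52 higher and 67 lower in PZT-2, where 73.7% of genes with a mean of at least 150 (36.5% higher and 37.2% lower) and 66.3% of all genes tested (33.3% higher and 32.9% lower) did not overlap. All 44 called members were among these 119. With 2 libraries against 2 an exact two-sided permutation test of a single gene cannot go below p = 0.333. Without PZT-2 replicate 1 the calls fell to 7 higher and 16 lower, and without PZT-2 replicate 2 to 7 higher and 7 lower, while calls over all genes went from 4292 to 2312 and 1865. Limma-trend on TPM values gave 14 higher and 15 lower with a pseudocount of 1, and 15 and 15 with 0.1. DESeq2 called 10 higher and 20 lower, all of them also called by edgeR.

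**Figure D1:**
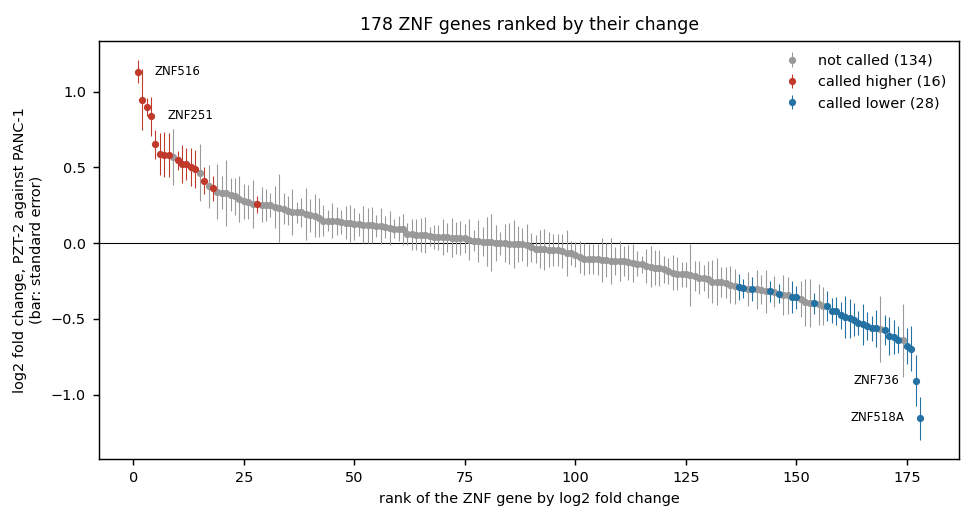
Log2 fold change of PZT-2 against PANC-1 (vertical axis) for the 178 ZNF genes in the order of that change (horizontal axis). Points are the fitted values from 2 libraries a line, bars are standard errors, and colour marks the 16 genes called higher and the 28 called lower, between ZNF516 at 1.13 and ZNF518A at -1.16.

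The lower share of calls held within bands of level, although members lay lower than other genes inside each band. From the lowest band to the highest, median normalized counts were 197, 365 and 815 for members. For other genes they were 213, 420 and 1294, so the bands did not fully match level. Between 150 and 300 mean estimated counts, 17 of 85 members (20%) and 29.4% of 1809 other genes were called. From 300 to 600 the shares were 11 of 51 members (21.6%) and 32.9% of 2240 other genes, and from 600 upwards 16 of 42 members (38.1%) and 44.1% of 4991 other genes. The median standard error of the members was 0.128, 0.101 and 0.0791 in the 3 bands, against 0.127, 0.0968 and 0.0697 for the other genes. The median size of the log2 change, without its sign, was 0.237, 0.149 and 0.216 for the members and 0.276, 0.23 and 0.209 for the others. These are counts and medians, and the difference between the family and other genes was not tested. Among the 300 ZNF symbols tested that lay below the threshold, antisense and other such transcripts included, 11 were called higher and 14 lower (8.33% in all). Their median was -0.01, with a larger median standard error of 0.27. Of all 15101 genes tested 4292 were called, and 3516 of these were among the 9218 with a mean of at least 150.

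**Figure D2:**
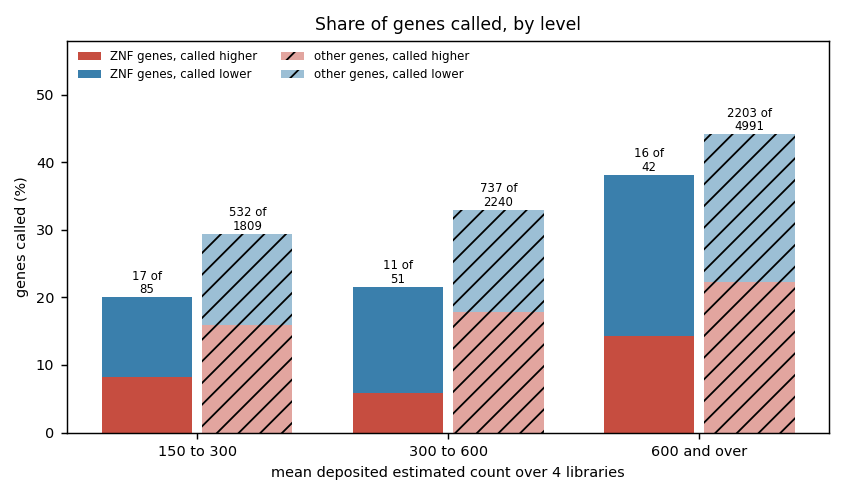
Share of genes called (percent, stacked for called higher and called lower) in 3 bands of the mean deposited estimated count, for ZNF genes (plain bars) and other genes (hatched bars), with the number called of the number tested above each bar. In each band the plain bar is the shorter one, from 20% against 29.4% in the lowest band to 38.1% against 44.1% in the highest.

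Among the members that rose, ZNF516, a repressor that recruits CtBP, changed most. Its normalized counts were 490.4 and 453 in PANC-1 and 1059 and 1004 in PZT-2, a change of 1.13 on the log2 scale (SE 0.0779, adjusted p = 0.000387). ZNF778, a KRAB zinc finger gene that passed the threshold of level only through PZT-2, had 92.2 and 144 in PANC-1 and 224 and 235 in PZT-2, a change of 0.95 on the log2 scale (SE 0.202, adjusted p = 0.0158). ZNF185, which despite its name encodes a LIM domain protein of the actin cytoskeleton and in which the search found no C2H2 finger, had 1097 and 1082 in PANC-1 and 2054 and 2002 in PZT-2, a change of 0.90 on the log2 scale (SE 0.0586, adjusted p = 0.000326). In these 3 genes the PZT-2 libraries were all above those of PANC-1, and in ZNF778 the PANC-1 libraries themselves differed most. The counts of ZNF251, a KRAB gene, were 181 and 199 in PANC-1 and 309.9 and 369.7 in PZT-2, a change of 0.84 on the log2 scale (SE 0.128, adjusted p = 0.00487). ZNF445, a KRAB protein known to maintain imprinted methylation, had 273 and 294 in PANC-1 and 462 and 432 in PZT-2, a change of 0.65 on the log2 scale (SE 0.0942, adjusted p = 0.00405). ZNF445 is on chromosome 3, where the other genes at this level had a median of 0.43.

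The other 5 of the 10 largest rises were smaller. ZNF697 rose from 212 ± 29.2 to 317 ± 33.4 normalized counts (SD, n = 2; edgeR log2 fold change 0.59, adjusted p = 0.0221). ZNF468, a KRAB gene on chromosome 19, had 129 and 156 in PANC-1 and 199 and 230.3 in PZT-2 and a change of 0.58 on the log2 scale (adjusted p = 0.0287), but 63.3% of its 31-base words occur in another gene and its most abundant transcript alone gave -0.03. ZNF469, a large gene mutated in brittle cornea syndrome, rose from 183 ± 19.9 to 274 ± 38.7 (SD, n = 2; edgeR log2 fold change 0.58, adjusted p = 0.0273). All 3 were higher in each PZT-2 library than in either PANC-1 library, with gaps between the lines of the same order as the spread within a line. ZNF544, a KRAB gene, rose from 755 ± 11.8 to 1103 ± 5.96 (SD, n = 2; edgeR log2 fold change 0.55, adjusted p = 0.00193), with a spread far below the difference. ZNF365, a protein of the centrosome and of genome maintenance in which no C2H2 finger was found by the search, rose from 574 ± 99.7 to 828 ± 62.3 (SD, n = 2; edgeR log2 fold change 0.52, adjusted p = 0.0242). The calls of ZNF516, ZNF185, ZNF251, ZNF445 and ZNF544 held with each library left out in turn, while those of ZNF778, ZNF697, ZNF468, ZNF469 and ZNF365 were lost without PZT-2 replicate 1 or 2, and that of ZNF468 also without PANC-1 replicate 1. ZNF468, ZNF469 and ZNF365 did not pass in limma-trend on TPM values, ZNF468 and ZNF469 did not pass in DESeq2, and ZNF469 did not pass with the replicate block (14 members higher and 24 lower in that fit). Of the 10, only ZNF516 passed a further 2-fold minimum.

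Of the members that fell, ZNF518A fell most. Its normalized counts were 195 and 225 in PANC-1 and 92.6 and 95.9 in PZT-2, a change of -1.16 on the log2 scale (SE 0.14, adjusted p = 0.00217), so both PZT-2 libraries were below the threshold of 150 that the mean over all libraries passed. ZNF736, a KRAB gene on chromosome 7, had 207 and 245 in PANC-1 and 137 and 105 in PZT-2, a change of -0.91 on the log2 scale (SE 0.169, adjusted p = 0.00985), and likewise passed the threshold only through PANC-1. ZNF546, a KRAB gene of chromosome 19, had 419.5 and 446 in PANC-1 and 308 and 227 in PZT-2, a change of -0.70 on the log2 scale (SE 0.147, adjusted p = 0.0155). The groups did not overlap in any of the 3, although the PZT-2 libraries of ZNF736 and ZNF546 differed from each other. In ZNF608 the counts were 272 and 313 in PANC-1 and 186 and 181 in PZT-2, a change of -0.68 on the log2 scale (SE 0.118, adjusted p = 0.00773). In ZNF580 they were 418 and 410.1 in PANC-1 and 271 and 262 in PZT-2, a change of -0.64 on the log2 scale (SE 0.0889, adjusted p = 0.0036), and the libraries of each line agreed closely. As these are bulk samples, fewer cells that express a gene and less of its RNA per cell cannot be told apart.

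The next 5 falls were of like size. ZNF275 fell from 298 ± 23.4 to 194 ± 7.36 normalized counts (SD, n = 2; edgeR log2 fold change -0.62, adjusted p = 0.0088) and is on chromosome X, where the other genes at this level had a median of -0.30. ZNF488, whose mouse counterpart acts in oligodendrocyte differentiation, fell from 245 ± 22.9 to 159.5 ± 5.06 (SD, n = 2; edgeR log2 fold change -0.61, adjusted p = 0.0127). ZNF446 fell from 374 ± 19.5 to 251 ± 13.7 (SD, n = 2; edgeR log2 fold change -0.58, adjusted p = 0.0077), with 53.9% of its 31-base words in another gene. All 3 differences exceeded the spread within each line. ZNF800 fell from 192 ± 0.0472 to 130.1 ± 2.33 (SD, n = 2; edgeR log2 fold change -0.56, adjusted p = 0.0154). ZNF32, of which 34.5% of the 31-base words occur in another gene, fell from 532 ± 16.2 to 360.1 ± 11.5 (SD, n = 2; edgeR log2 fold change -0.56, adjusted p = 0.00446). The calls of ZNF518A, ZNF580 and ZNF32 held with each library left out in turn, and those of the other 7 were lost without PZT-2 replicate 2, in ZNF488 and ZNF800 also without PZT-2 replicate 1. ZNF518A was the only one of the 10 to pass a further 2-fold minimum. The falls of ZNF736, ZNF546, ZNF275 and ZNF800 did not pass in limma-trend on TPM values, and that of ZNF800 did not pass in DESeq2 either.

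Members with the largest estimates were not always called. ZNF302 had 137 and 229 in PANC-1 and 121 and 116 in PZT-2, a change of -0.64 on the log2 scale (SE 0.243, adjusted p = 0.0968), and its PANC-1 libraries stood far apart. ZNF74, in which 1 PZT-2 library lay near the PANC-1 libraries, had 236 and 247 in PANC-1 and 124 and 203 in PZT-2, a change of -0.57 on the log2 scale (SE 0.218, adjusted p = 0.102). ZNF211 had 119 and 175 in PANC-1 and 220.3 and 219 in PZT-2, a change of 0.57 on the log2 scale (SE 0.185, adjusted p = 0.064). These 3 were named after their values were seen, as the largest changes among members that did not pass the test.

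Compared per length, in TPM (abundance corrected for transcript length and scaled to a fixed sum per library), averaged over the 4 libraries, the highest members were ZNF593 with 226, ZNF787 with 153, ZNF207 with 135 and ZNF511 with 110.3, against a median of 10.4 over the members and 29.5 over genes with a mean of at least 150. Of these, ZNF593, a protein of ribosome biogenesis, had 984 and 976 in PANC-1 and 756 and 815 in PZT-2 normalized counts, a change of -0.32 on the log2 scale (SE 0.0704, adjusted p = 0.0178). Its estimated counts and rank are uncertain, because 92.7% of its 31-base words occur in another gene. ZNF787 had 2564 and 2448 in PANC-1 and 1987 and 2086 in PZT-2, a change of -0.30 on the log2 scale (SE 0.0603, adjusted p = 0.0131). ZNF511 had 957 and 960.2 in PANC-1 and 705 and 750.2 in PZT-2, a change of -0.40 on the log2 scale (SE 0.0689, adjusted p = 0.00763). All 3 fell by less than the 10 largest falls, without overlap between the lines. ZNF207 (BuGZ), which loads a mitotic checkpoint protein on kinetochores, had 2359.7 and 2360.2 in PANC-1 and 2125 and 2155 in PZT-2 and did not pass, with a change of -0.14 on the log2 scale (SE 0.0543, adjusted p = 0.101). Without PZT-2 replicate 1 or 2, ZNF593 and ZNF787 were no longer called, and ZNF511 was not called without PZT-2 replicate 1.

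Of 8 members listed for roles outside promoter binding, 2 were called higher and 2 lower (50%, beside 38.1% of genes with a mean of at least 150). Beside ZNF185, ZNF598, the ubiquitin ligase that senses collided ribosomes, rose, with normalized counts of 2018 and 1988 in PANC-1 and 2388 and 2394 in PZT-2, a change of 0.26 on the log2 scale (SE 0.0545, adjusted p = 0.0158), a call that was lost without PZT-2 replicate 1 or 2. ZNF451, a ligase for SUMO, fell, with 411 and 437 in PANC-1 and 346 and 348 in PZT-2, a change of -0.29 on the log2 scale (SE 0.0871, adjusted p = 0.0497), and its call was close to the threshold and lost under 11 of 16 alternatives. ZNF593 fell as given above. The other members of this list did not pass: ZNF622, a factor of 60S ribosome maturation, at -0.22 (adjusted p = 0.153), ZNF330, a nucleolar protein, at 0.33 (adjusted p = 0.311), ZNF346, which binds double-stranded RNA, at -0.10 (adjusted p = 0.522), and ZNF207. In ZNF330 and ZNF346 the libraries of the lines overlapped.

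Of 12 promoter and chromatin factors, 11 were members, 2 of these were called lower and none higher, where 18.5% and 19.7% of genes with a mean of at least 150 were. ZNF217, an oncogene product that works with the CoREST repressor complex, had 1546 and 1555 in PANC-1 and 1269.7 and 1193 in PZT-2, a change of -0.33 on the log2 scale (SE 0.0627, adjusted p = 0.0101). ZNF532, which with ZNF592, ZNF687 and ZMYND8 forms a chromatin complex, had 725 and 773 in PANC-1 and 537 and 504 in PZT-2, a change of -0.53 on the log2 scale (SE 0.0789, adjusted p = 0.00459). Its partners in that complex did not pass and lay on the other side of 0 or near it, ZNF592 at 0.25 (adjusted p = 0.0561) and ZNF687 at -0.00 (adjusted p = 0.991). ZNF143, which binds many promoters and chromatin loop anchors, was at 0.28 (adjusted p = 0.124) with both PZT-2 libraries above PANC-1. ZNF644, a partner of the methyltransferases G9a and GLP, and ZNF652, a partner of the repressor CBFA2T3, were at -0.28 (adjusted p = 0.118) and -0.34 (adjusted p = 0.101). ZNF281 was at -0.21 (adjusted p = 0.105), ZNF148 at -0.12 (adjusted p = 0.616) and ZNF384 at -0.06 (adjusted p = 0.584). ZNF410, known for holding up the transcription of CHD4, was at -0.11 (adjusted p = 0.479), while CHD4 itself had 2320.3 and 2599.6 in PANC-1 and 3506 and 3442 in PZT-2, a change of 0.50 on the log2 scale (SE 0.0694, adjusted p = 0.00361). ZNF827, the gene of this list below the threshold of level, was at -0.42 (adjusted p = 0.128). The call of ZNF217 was lost without PZT-2 replicate 2, and that of ZNF532 held with each library left out.

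The 4 KRAB genes listed for silencing repeats or other ZNF genes, which are not all genes with such a role, were below the threshold and none was called. Deposited means were 139 for ZNF274, 56.8 for ZNF10, 54.2 for ZNF91 and 35.7 for ZNF93. Their libraries overlapped between the lines in all 4, with log2 fold changes of -0.16 (adjusted p = 0.479), -0.10 (adjusted p = 0.818), -0.04 (adjusted p = 0.937) and -0.46 (adjusted p = 0.457). At these counts the standard errors ran from 0.148 to 0.416, so only larger changes were detectable.

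The 17 corepressor genes, through which KRAB proteins act, had 5 called lower, 2 called higher and 10 not called, with a median log2 fold change of -0.04. The share called, 41.2%, was near the 38.1% of genes with a mean of at least 150. TRIM28, which binds the KRAB domain, had 12482 and 12683 in PANC-1 and 11085 and 11104 in PZT-2, a change of -0.18 on the log2 scale (SE 0.0427, adjusted p = 0.0224), a small fall at a high count. ATF7IP, the partner of the methyltransferase SETDB1, had 344 and 369 in PANC-1 and 251 and 197 in PZT-2, a change of -0.67 on the log2 scale (SE 0.135, adjusted p = 0.0126). CBX5, the heterochromatin protein HP1 alpha, had 3319 and 3715 in PANC-1 and 2416 and 2155 in PZT-2, a change of -0.62 on the log2 scale (SE 0.0831, adjusted p = 0.00305). These 3 fell, with no overlap between the lines. MORC2, an ATPase that works with the HUSH silencing complex, had 991 and 990.0 in PANC-1 and 652 and 616 in PZT-2, a change of -0.64 on the log2 scale (SE 0.0691, adjusted p = 0.00147). SUV39H1, a methyltransferase for histone H3, had 841 and 875 in PANC-1 and 668 and 651 in PZT-2, a change of -0.38 on the log2 scale (SE 0.069, adjusted p = 0.00894). Higher in PZT-2, besides CHD4 of the NuRD complex, was PPHLN1 (periphilin, of the HUSH complex), with 517 and 526 in PANC-1 and 675 and 682 in PZT-2, a change of 0.38 on the log2 scale (SE 0.0718, adjusted p = 0.0103). SETDB1 at -0.04 (adjusted p = 0.756), HDAC1 at -0.02 (adjusted p = 0.808), HDAC2 at 0.09 (adjusted p = 0.54), CBX1 at 0.12 (adjusted p = 0.139) and CBX3 at 0.05 (adjusted p = 0.667) did not pass, nor did CHD3, SMARCAD1, MPHOSPH8, FAM208A and SUV39H2. Only 3 of the 17 were called without PZT-2 replicate 2.

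Members grouped by sequence had medians close to 0. With KRAB letters in the protein, 6 of 61 members were called higher and 8 lower (median log2 fold change 0.01), and without them 10 of 115 were called higher and 20 lower (median -0.04). A KRAB domain with other letters would be missed by the search. By number of fingers, 13 of 39 members with up to 4 were called, 9 of 42 with 5 to 8, 14 of 50 with 9 to 12, and 8 of 45 with 13 or more, with medians of -0.09, -0.11, 0.05 and 0.02. The share called was 33.3% in the first group and 17.8% in the last, and the members with few fingers also had the higher level per length, a median of 19.9 TPM against 8.9. Members of which more than 20% of the 31-base words occur elsewhere had 2 of 37 called higher and 5 lower (18.9%), against 26% of those with under 5%.

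Chromosome 19 carried 55 members, of which 3 were called higher and 9 lower, with a median of -0.00. The 552 other genes of chromosome 19 at this level had a median of -0.11, with 62 called higher and 174 lower. Of the 35 chromosome 19 members with KRAB letters, 3 were called higher and 3 lower. On chromosome 16, 3 of 19 members were called higher and 1 lower, where 14.7% of the other genes there were called higher and 18.6% lower. On chromosome 7, 2 of 14 members were called lower, where 26.5% of the other genes were called lower and 10.8% higher. The median on chromosome 7 was -0.23 for the members and -0.09 for the other genes. Chromosome 10 had 8 members, of which ZNF518A, ZNF488, ZNF32 and ZNF511 were called lower and ZNF365 higher, while 31.1% of the other genes there were called; this chromosome was picked out after its values were seen. The 5 members of chromosome 3 had a median of 0.15 where other genes had 0.43, and the 3 members of chromosome X, ZNF185, ZNF275 and ZNF75D, were all called, ZNF185 higher and the other two lower, where 58.5% of the other genes there were called and their median was -0.30. The call of ZNF75D was lost in DESeq2, in limma-trend and without PANC-1 replicate 2 or either library of PZT-2. Without the members of these 2 chromosomes, 14 of 170 were called higher and 26 lower.

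**Figure D3:**
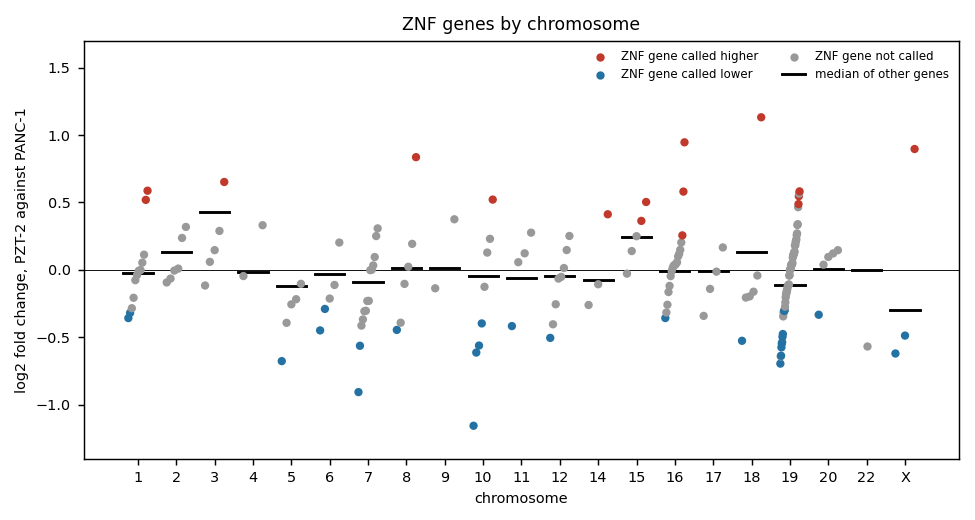
Log2 fold change of PZT-2 against PANC-1 (vertical axis) of each ZNF gene, by chromosome (horizontal axis), coloured by call. Black lines are the median of the other genes with a mean of at least 150 on that chromosome, at 0.43 on chromosome 3 and -0.30 on chromosome X, and the 55 genes of chromosome 19 spread on both sides of 0.

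Neighbouring members did not all move together. In the order of protein-coding genes, 85 members stood in a run with another member, with at most 2 other genes between successive ZNF genes, and 6 of them were called higher and 12 lower, against 10 and 16 of the 91 without such a neighbour. The largest run, on chromosome 19, held 16 members, with ZNF544 and ZNF256 called higher, ZNF805 called lower (the calls of ZNF256 and ZNF805 were lost in DESeq2 and without PANC-1 replicate 1 or either library of PZT-2), 13 not called and a median of 0.20. In the run of ZNF780A, ZNF780B and ZNF546, ZNF780B had 1173 and 1213 in PANC-1 and 929 and 788 in PZT-2, a change of -0.48 on the log2 scale (SE 0.0901, adjusted p = 0.0103), a call lost in limma-trend and without PZT-2 replicate 2, and ZNF546 fell as well, whereas ZNF780A had 1189 and 1226 in PANC-1 and 1330.0 and 1152 in PZT-2 and did not pass, at 0.04 (adjusted p = 0.774). In the run of ZNF580, ZNF581, ZNF524, ZNF865 and ZNF579, ZNF580 and ZNF524 were called lower, ZNF524 with 390.3 and 313 in PANC-1 and 230.4 and 252 in PZT-2 and a call lost without PZT-2 replicate 1 or 2, and the other 3 lay between 0.04 and 0.11 on the log2 scale. On chromosome 7 the 6 members of the run with ZNF282, ZNF777, ZNF398, ZNF783, ZNF212 and ZNF746 had a median of -0.27 and none was called, although ZNF398 came close at -0.41 (adjusted p = 0.0531). These runs were picked out after their values were seen.

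Other zinc finger genes with a mean of at least 150 gave a like picture. Of 26 ZBTB genes, 2 were called higher and 4 lower, of 4 ZSCAN genes 1 higher, of 5 ZKSCAN genes none in either direction, of 8 ZFP genes 1 each way and of 7 KLF genes 1 higher. Together 10 of these 50 genes were called, 20%, beside 24.7% of the ZNF members. The median log2 fold change over these 50 was 0.00, and no difference between the names was tested.

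At the level of single transcripts little passed the test in edgeR. The members had 411 transcripts that were tested, and edgeR called none of them higher or lower, where it called 0.0691% of all 30403 transcripts higher and 0.0789% lower. At an unadjusted edgeR p under 0.05 there were 61 of the 411, and DESeq2 called 16 higher and 29 lower. Over all 30403 transcripts tested, DESeq2 called 4400. ZNF516, with 1 transcript, shows the difference between the levels, since NM_014643 had 490.2 and 454.9 normalized counts in PANC-1 and 1058 and 1001 in PZT-2 and an adjusted p of 0.0604 among transcripts in edgeR. In ZNF532, with 8 transcripts, single estimates ran between 0 and 409.2 within PANC-1 replicate 1, and NM_001353525 had 0 and 316.9 in the PANC-1 libraries, a split that the sum over the gene does not carry. For 66 members only 1 transcript was tested. ZNF281 and ZNF444, picked out after their values were seen, had transcripts that moved in opposite directions. In ZNF281, NM_001281293 had 12.4 and 36.3 in PANC-1 and 254 and 255 in PZT-2. NM_012482 had 417 and 428 in PANC-1 and 9.04 and 135 in PZT-2. In ZNF444, NM_001253792 was at 0.92 and NM_018337 at -0.67 (DESeq2 adjusted p = 0.00112 and 7.14e-06). EdgeR called neither gene and none of these transcripts.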

How the data were processed

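RNA-seq of 2 libraries of PANC-1 and 2 of PZT-2 was analysed. The authors' steps were trimming of paired reads (Trim Galore 0.4.1), abundance estimation on RefSeq transcripts (kallisto 0.43.0) and a Wald test between the lines (sleuth 0.29.0). The submitters' processing notes also name the build hg19. The release of the index and the strand setting are not given in the sources used here. The estimated counts and TPM values are as deposited by the authors, with 1 value per transcript and library. The deposited columns of the authors' comparison (effects, p-values and q-values of sleuth) were not used, and only gene symbols were taken from that table.

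The deposited estimated counts carry 1 factor per library (1.16, 0.935, 1.03 and 1.01), which was undone as planned. Between 43.2% and 44.3% of values between 0.5 and 30 in genes with 1 transcript were then whole to within 0.01, against 0.817% to 2.58% before. Counts were rounded and summed over transcripts to genes, 3925 transcripts being named through their accession in RefSeq GRCh38.p14 and 103 staying unnamed (0.0466% of counts). The test was edgeR's quasi-likelihood test (version 4.0.16 in R 4.3.3) with TMM factors, over genes that reached 5 counts in 2 or more libraries, with Benjamini-Hochberg adjustment over all of them and a threshold of 0.05. On simulated counts for 15101 genes, 141 of 200 genes changed by 2-fold were recovered (70.5%), and 7 unchanged genes were called. The 200 were drawn from genes of every level. In the data 28.4% of genes tested were called, and members averaged at least 150 counts. The 70.5% is thus a check of the procedure and not a recovery rate for the members. Replicates differed by more than counting noise, with a chi-square of 5.81 per gene in PANC-1 and 3.36 in PZT-2.

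Members and lists were chosen with earlier results of these data known. Named genes were the 10 largest rises and 10 largest falls among called members whose libraries do not overlap, the 4 members with the highest mean TPM, the 2 genes on either side of the threshold, members of 2 lists of roles, 4 silencing genes, 17 corepressors and the targeted genes. Chromosomes and gene order come from RefSeq, and coding sequence and 31-base words from GENCODE 29, which is not the index of the authors. Alternatives were 17 planned ones and 2 added after the values were seen (robust prior and version 4 dispersion estimate in edgeR), and DESeq2 on transcripts was also added then. DESeq2 1.42.0 and limma 3.58.1 were used for alternatives.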

Additional observations from a re-analysis of the deposited data

How the results depend on the processing

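The 16 higher and 28 lower calls among members became 10 and 20 in DESeq2, 1 and 1 with a 2-fold minimum, 6 and 11 with the most abundant transcript of each gene alone, and 6 and 10 among members with a mean of at least 500. Limma-trend on log2(TPM + 1) and log2(TPM + 0.1) called 15 lower in each, and 14 and 15 higher. With each library left out in turn, higher calls ran from 7 to 23 and lower calls from 7 to 36, lowest without a PZT-2 library (PZT-2 then has 1 library, assumed to vary like the other line). In every fit run the share of members called was below that of genes with a mean of at least 150. ZNF544, ZNF32 and ZNF532 were among the calls lost with the most abundant transcript alone.

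The median of the members was -0.021. A standard deviation of 0.00224 came from the median difference between the 2 libraries of each line. It rests on 1 difference a line, after scaling that already brings the libraries together, so it is a rough and probably small measure. Median deviations of the members per library were 0.0091 and 0.0164 in PANC-1 and -0.0267 and -0.0170 in PZT-2. Most alternatives moved the median of the members by more than 0.00224, which by itself has little meaning. It was -0.025 with RLE size factors, -0.0236 in DESeq2, -0.0173 with the deposited values, -0.0229 with the replicate block, -0.0265 with the most abundant transcript and -0.033 without chromosomes 3 and X. With the TPM values it was 0.0214 and 0.0228, where all genes shifted to 0.045 and 0.057, at a mean of at least 500 it was 0.0166, at a mean of at least 50 it was -0.0414, and with a library left out it ran from -0.0507 to -0.0246. Its sign thus depends on the unit and the threshold. The 7 corepressor calls became 0 with the 2-fold minimum and 4 with the most abundant transcript, and ran from 3 to 10 with a library left out. DESeq2 called 16 transcripts of members higher and 29 lower, beside 4400 of all 30403 transcripts tested, where edgeR called 0 of the members' transcripts. H2AFV, at -0.36, did not meet the 2-fold minimum, was at -0.26 for its most abundant transcript alone and not called, and ran from -0.39 to -0.32 with a library left out. ZNF468 reversed to -0.0257 with its most abundant transcript. The causes were not tested.

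With the replicate block, which the shared numbers of the titles allow, 14 members were called higher and 24 lower. Deviations of same-numbered libraries from their line's mean had a correlation of -0.0206 over genes. With 2 libraries a line this value cannot show whether same-numbered libraries were handled together, and the titles give only the number. Depth limits the members with the lowest counts, where the median standard error was 0.128, against 0.0791 in the highest band.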
